A study of Mus musculus with 5 samples.

Results

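The myeloid C-type lectin receptors are pattern receptors of macrophages, monocytes, dendritic cells and neutrophils. The 10 genes described here are 8 receptor genes of this family (Clec4d, Clec4e, Clec4n, Clec4a1, Clec4a2, Clec4a3, Clec7a and Clec5a), Fcer1g, which encodes the FcR gamma adaptor chain, and Syk, which encodes the kinase that the adaptor recruits. They were chosen by gene symbol among 22180 symbols measured by probes with 1 symbol. For a symbol with several probes the one with the highest mean over all arrays would have been taken, but each of the 10 had 1 probe, so no measured value decided which probe stands for a gene. The family itself was picked with earlier results of these arrays known, and its values are therefore a description of it.

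The hearts came from wild-type C57Bl6J mice taken at zeitgeber time 12 (ZT12 on the clock of the light cycle). Every heart was perfused outside the body on a Langendorff apparatus, stabilised for 20 min, left without flow for 20 min and reperfused for 20 min before it was frozen. Mice of the antagonist group (n = 3 hearts) had been given an antagonist of REV-ERB alpha, the circadian repressor encoded by Nr1d1, into the peritoneal cavity, in 2 administrations 4 h and 1 h ahead of ischemia and reperfusion (the labels state 10 µM). Mice of the control group (n = 2 hearts), which the labels call sham, had not been given the antagonist, and their hearts passed through the same ischemia and reperfusion. The labels give no age or sex, do not name the compound and do not say whether sham mice were injected. Every heart was thus an ischemic and reperfused heart without circulating blood, and hearts without ischemia were not analysed here. The arrays, described by the labels as biological replicates, give log2 values after RMA (robust multi-array average), in which a difference of 1 is a 2-fold difference.

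C-type lectin receptors bind sugars and lipids of microbes and molecules released by damaged cells. Mincle (Clec4e), MCL (Clec4d) and Dectin-2 (Clec4n) have no signalling motif of their own and use the ITAM, an activating tyrosine motif, of the FcR gamma chain. Dectin-1 (Clec7a) carries an ITAM-like motif in its own tail, MDL-1 (Clec5a) pairs with the adaptors DAP12 (Tyrobp) and DAP10 (Hcst), and DCIR (Clec4a2) carries an inhibitory motif. Phosphorylated ITAMs recruit SYK, which acts through CARD9, BCL10 and MALT1 on NF-kB and cytokine genes.

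In these hearts the genes of 2 activating receptors, Clec4d and Clec4e, measured about 2-fold higher with the antagonist, in each antagonist heart above each sham heart. Clec7a, also the gene of an activating receptor, measured lower in each antagonist heart than in each sham heart. Clec4n and Clec5a had higher antagonist means with tied values between the groups, Fcer1g, Clec4a1 and Clec4a3 overlapped, and Syk and Clec4a2 had a single value on all 5 arrays. With limma's moderated test 0 of the 9 tested genes had an adjusted p under 0.05 over all genes, as was the case for 0% of the 15294 genes tested (704 had an unadjusted p under 0.05). Without sham replicate 1 or sham replicate 2, which leaves 1 control heart, 1319 or 2058 genes were called and 0 of the family. Each statement on direction below is therefore a description of 5 hearts.

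The order of the genes along the chromosome and the sequences upstream of the genes that differ most are shown first. In the RefSeq gene table of GRCm38.p6, used for which genes neighbour each other, the Clec4 genes lie side by side on chromosome 6 in the order Clec4a1, Clec4a3, Clec4a4, Clec4b1, Clec4a2, Clec4b2, Clec4n, Clec4d and Clec4e. Clec7a and Clec5a lie elsewhere on chromosome 6, Fcer1g on chromosome 1 and Syk on chromosome 13. RefSeq promoter sequences, each of 300 bases from 250 before to 50 after the annotated start, were matched for 9 of the 10 genes. Shown are those of Clec4d (chr6:123261857-123262156, plus strand) and its neighbour Clec4e (chr6:123289822-123290121, minus strand), the genes with the largest differences. Also shown is a window of Clec7a (chr6:129472730-129473029, minus strand), the gene that measured lower in each antagonist heart than in each sham heart. All are written 5′ to 3′ along the gene, and capitals mark matches to the motifs described in the next paragraph.
Clec4d: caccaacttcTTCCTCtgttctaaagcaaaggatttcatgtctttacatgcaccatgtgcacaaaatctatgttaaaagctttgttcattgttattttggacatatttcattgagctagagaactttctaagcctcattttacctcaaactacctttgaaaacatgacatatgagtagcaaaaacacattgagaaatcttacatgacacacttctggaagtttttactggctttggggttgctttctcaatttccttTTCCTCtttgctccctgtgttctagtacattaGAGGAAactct
Clec4e: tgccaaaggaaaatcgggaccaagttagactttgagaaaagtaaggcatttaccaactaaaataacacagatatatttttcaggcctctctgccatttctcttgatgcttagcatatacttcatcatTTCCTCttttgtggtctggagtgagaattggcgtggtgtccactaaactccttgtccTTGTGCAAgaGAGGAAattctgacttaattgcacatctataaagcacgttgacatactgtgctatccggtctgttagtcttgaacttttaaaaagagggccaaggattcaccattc
Clec7a: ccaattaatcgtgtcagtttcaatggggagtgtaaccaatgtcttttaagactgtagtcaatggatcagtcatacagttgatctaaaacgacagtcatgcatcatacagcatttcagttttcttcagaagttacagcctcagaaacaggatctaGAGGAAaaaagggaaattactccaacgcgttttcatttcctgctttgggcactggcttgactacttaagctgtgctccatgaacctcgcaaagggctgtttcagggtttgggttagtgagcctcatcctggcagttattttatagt

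The motifs, searched on both strands, were AGGTCA, the core of REV-ERB and ROR sites, GAGGAA for the myeloid factor PU.1, TTGCNNAA for C/EBP factors, GGGNNTTCC for NF-kB and TGANTCA for AP-1. No base of one match lay in a match of another in the 3 promoters shown. AGGTCA was found in 0 of the 12 promoter sequences matched to these genes and in 16.3% of all 32851 promoters of the same length. GAGGAA, found in 28.3% of all promoters, matched 3 times in the window of Clec4d, 2 times in that of Clec4e and 1 time in that of Clec7a. It was not limited to these genes: 8 of the 12 sequences, from 7 of the 9 genes, held it, among them Clec4a1 and Clec5a with 2 matches each and Clec4a3 and Syk, whose values did not separate the groups. The window of Clec4e also held the only C/EBP match among these genes, at positions -66 to -59 from the start, while 10.8% of all promoters hold one. An NF-kB match (5.82% of all promoters) was found at Clec4a3 and an AP-1 match (7.81%) at Clec4a2. Clec4a3 and Clec7a each had windows among the 12 sequences that overlap one another. The NF-kB match of Clec4a3 was the same site in both of its windows. The GAGGAA of Clec7a was likewise the same site, counted in both of its windows. A match describes letters in this window and not a bound site.

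Clec4d encodes MCL, a receptor that forms pairs with Mincle and brings it to the cell surface. Its log2 values were 3.73 and 3.96 in the sham hearts and 4.83, 5.03 and 4.71 in antagonist replicates 1, 2 and 3. All antagonist hearts lay above both sham hearts, and the gap between the groups was wider than the spread within either. The means were 3.85 ± 0.16 (SD, n = 2) and 4.86 ± 0.17 (SD, n = 3), a difference of 1.01 ± 0.14 (SE) or 2.01-fold, with a 95% interval from 0.62 to 1.40. The limma p was 0.0024 unadjusted and 0.64 after Benjamini-Hochberg adjustment over 15294 genes. An exact permutation test (two-sided, 10 ways to divide the hearts into 3 and 2) gave p = 0.10, and no smaller p is possible with these group sizes.

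Clec4e encodes Mincle, which recognises mycobacterial glycolipid and the nuclear protein SAP130 released from dying cells. Its values were 4.26 and 3.65 in sham and 4.89, 5.63 and 4.66 with the antagonist. The groups again did not overlap, but the sham hearts lay farther apart than for Clec4d, and antagonist replicate 2 stood above the other antagonist hearts. The difference was 1.10 ± 0.40 (SE), 2.15-fold, and its 95% interval from -0.04 to 2.24 included 0. The limma adjusted p was 0.64 and the exact permutation p 0.10.

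Clec4d and Clec4e were 2 of the 18 genes, 0.118% of those tested, with a difference of at least 1. Both were on the higher side without overlap of the groups, as were 6.19% of tested genes. Of the 18 genes, 17 had their highest value on antagonist replicate 2, Clec4d and Clec4e included. Bmp10, which is in the atrial marker list, and Cidec and Retn, which are in the adipocyte list, were among the 18 genes. Antagonist replicate 2 also carried high levels of many atrial, fat and mesothelial genes. It had the highest value of 8 of 12 tested atrial, 5 of 8 adipocyte and 8 of 9 mesothelial markers. The mean log2 value of 12 atrial markers was 8.28 there and between 6.66 and 6.97 on the other arrays, that of 9 adipocyte markers 7.27 against 5.82 to 6.01, and that of 10 mesothelial markers 4.94 against 4.20 to 4.27. Without antagonist replicate 2 the difference was 0.92 for Clec4d and 0.82 for Clec4e, or 1.89-fold and 1.76-fold. In that comparison the groups still did not overlap for either gene, as for 8.76% of tested genes on the higher side. By size of difference, Clec4d ranked 17 with all arrays and 10 without antagonist replicate 2, and Clec4e 12 and 17. Of the 18 genes, 4 had a difference of at least 1 without that heart, and 0 of these 4 belong to the family.

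Clec4n encodes Dectin-2, a receptor for fungal mannans and the next gene along the cluster. It measured 3.79 and 4.06 in sham and 4.18, 4.25 and 4.06 with the antagonist. Antagonist replicate 3 had exactly the value of sham replicate 2, so the groups touched. The difference was 0.24 ± 0.11 (SE; limma adjusted p = 0.64), and 0.10 without sham replicate 1. Clec4n, Clec4d and Clec4e, which stand next to each other at the end of the cluster, were the 3 Clec4 genes with a difference above 0.2.

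**Figure D1:**
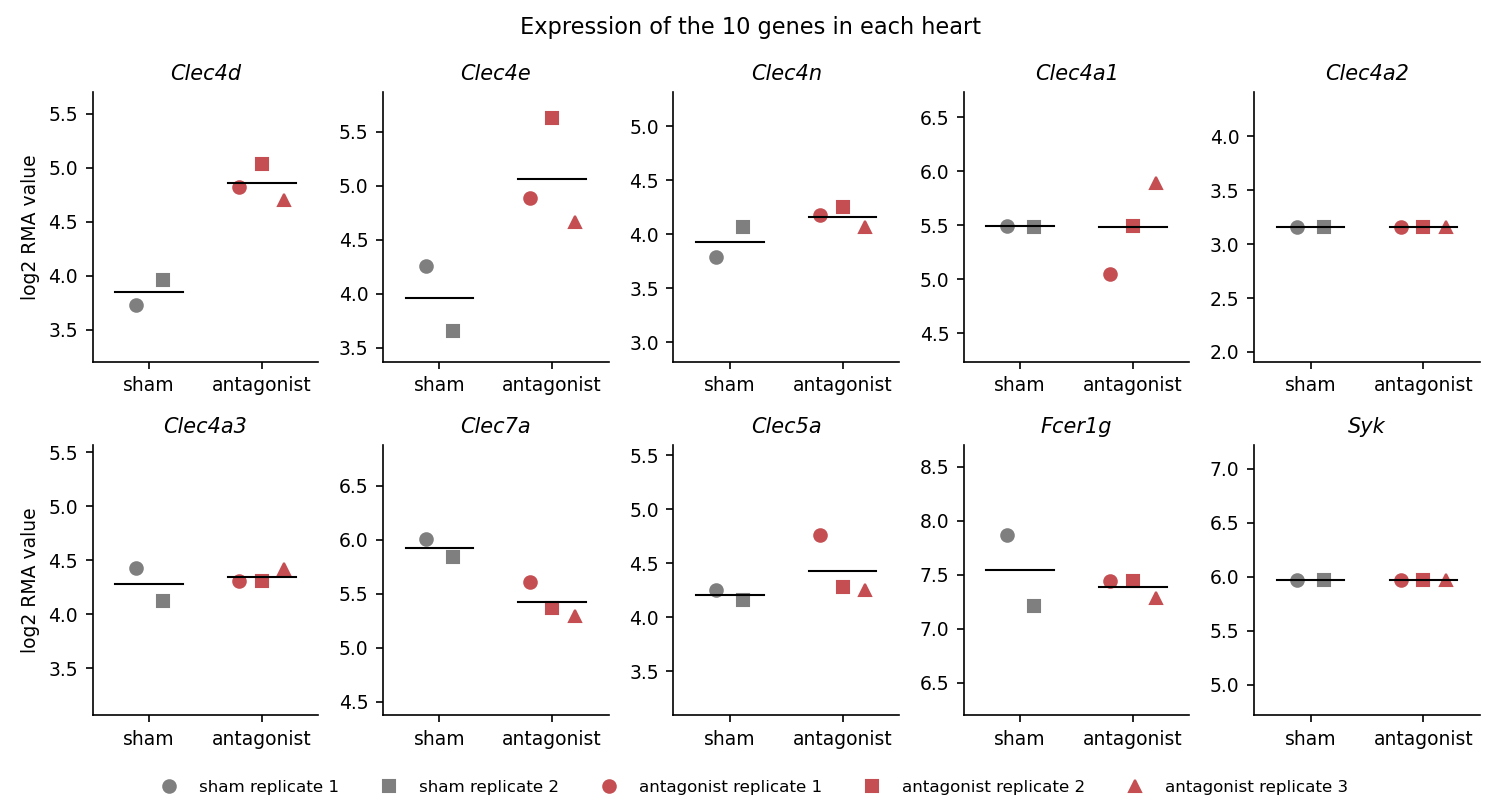
Log2 RMA value (vertical axis, the same height of scale in each panel) of the 10 genes in 2 sham hearts (grey) and 3 antagonist hearts (red), with lines at the group means. Clec4d and Clec4e lie higher and Clec7a lower in all antagonist hearts, while Syk and Clec4a2 have one value throughout.

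Clec7a encodes Dectin-1, the receptor for fungal beta-glucan. It measured 6.01 and 5.84 in sham and 5.61, 5.37 and 5.29 with the antagonist. Every antagonist heart lay below every sham heart, as for 6.33% of tested genes. The means were 5.93 ± 0.11 (SD, n = 2) and 5.43 ± 0.17 (SD, n = 3), a difference of -0.50 ± 0.12 (SE), with a 95% interval from -0.86 to -0.14. The limma p was 0.019 unadjusted and 0.64 adjusted, and the exact permutation p was 0.10. Clec7a and Clec4d were the 2 genes of the family with an unadjusted p under 0.05, which 4.60% of tested genes had. Without antagonist replicate 2 the difference of Clec7a was -0.47 and the groups did not overlap, as for 8.87% of genes on the lower side.

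Clec5a encodes MDL-1, an activating receptor of myeloid cells. Its values were 4.26 and 4.16 in sham and 4.76, 4.28 and 4.26 with the antagonist. Antagonist replicate 1 alone stood apart, and antagonist replicate 3 was equal to sham replicate 1. The difference of 0.22 ± 0.20 (SE; limma adjusted p = 0.68) became 0.06 without antagonist replicate 1.

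The genes of the DCIR group did not differ in one direction. Clec4a1 (DCIR4) measured 5.50 and 5.48 in sham and 5.05, 5.50 and 5.89 with the antagonist. The antagonist hearts lay on both sides of the sham hearts, with a difference of -0.010 ± 0.28 (SE) that was 0.20 without antagonist replicate 1. Clec4a3 (DCIR3) measured 4.43 and 4.13 in sham and 4.30, 4.30 and 4.42 with the antagonist, within the sham range in all 3 hearts. Its difference of 0.065 ± 0.11 (SE) was -0.085 without sham replicate 2. Clec4a2 (DCIR) had the value 3.16 on all arrays, below the level filter of 3.42, and was not tested. The cluster genes Clec4a4, Clec4b1 and Clec4b2 had means of 2.10, 2.01 and 2.83 and were also below the filter.

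**Figure D2:**
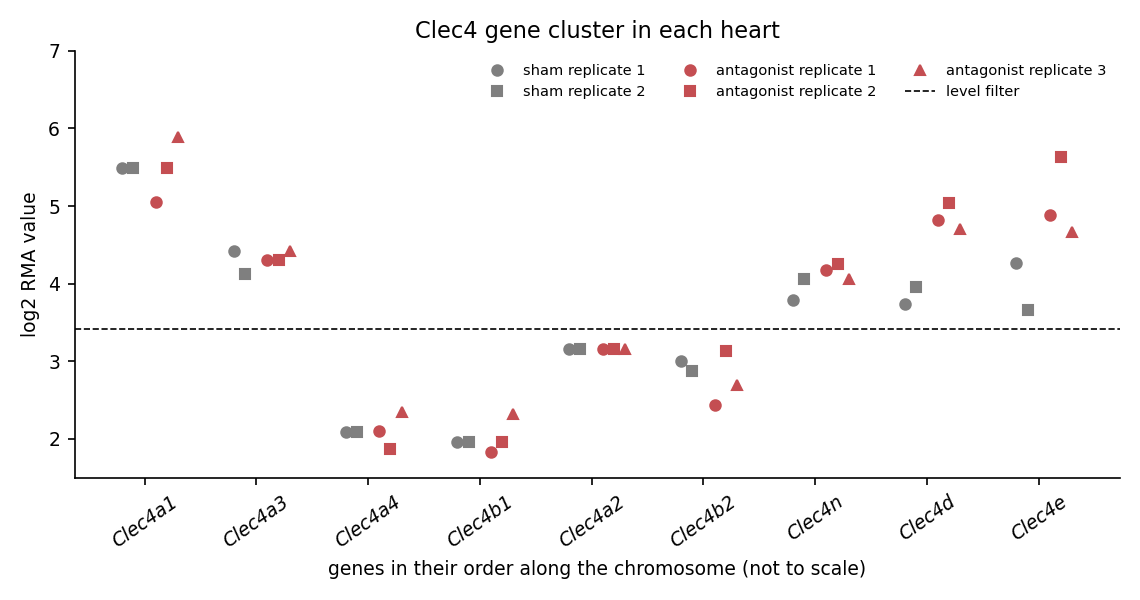
Log2 RMA value (vertical axis) of the 9 genes of the Clec4 cluster in their order along chromosome 6 (horizontal axis, not to scale), by heart, with the level filter as a dashed line. Antagonist hearts (red) separate from sham hearts (grey) at Clec4d and Clec4e and at no other gene; levels of different genes come from different probes and are not comparable.

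Fcer1g, which encodes the adaptor of MCL, Mincle and Dectin-2, overlapped between the groups. It measured 7.87 and 7.21 in sham and 7.44, 7.44 and 7.29 with the antagonist. The antagonist hearts all lay between the sham hearts, which were the highest and the lowest of the 5. The difference was -0.15 ± 0.23 (SE; limma adjusted p = 0.78), and 0.18 without sham replicate 1. Syk had the value 5.97 on all 5 arrays. Equal values are frequent in this table, as 73.9% of tested genes had fewer than 5 different values and 922 had a single one, and median polish over few arrays can give them. The single value of Syk is thus no measure of the spread between hearts. Of the 10 genes, 3 had a different value on each array, namely Clec4d, Clec4e and Clec7a.

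Counted over the 9 tested genes, 5 were higher, 3 lower and 1 equal, with a median difference of 0.065. Over all tested genes 7294 were higher, 7078 lower and 922 equal, with a median of 0. At an unadjusted p under 0.05 there were 704 of all genes and 2 of the family. Leaving out single arrays gave 4 to 6 higher genes of the 9.

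**Figure D3:**
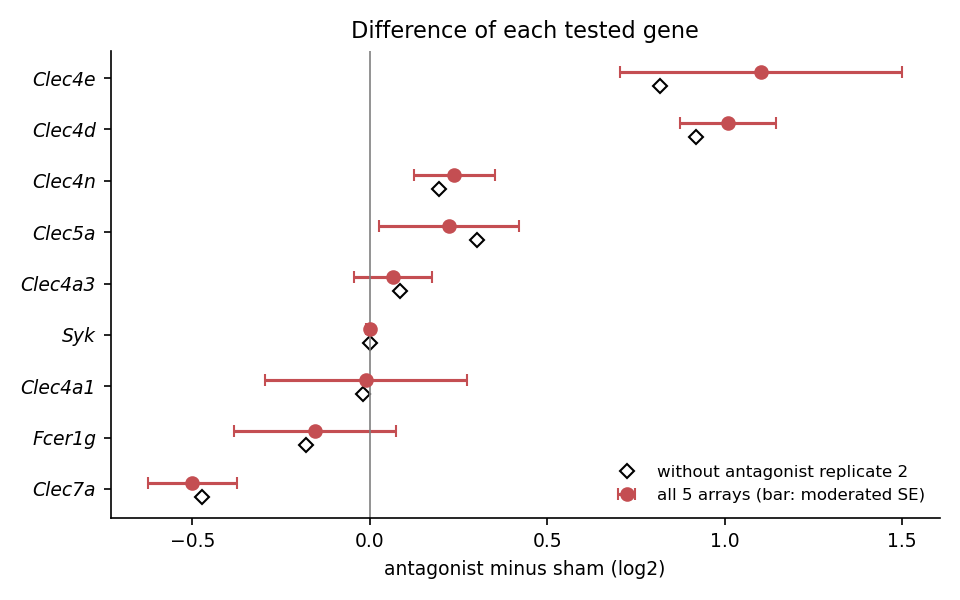
Difference between antagonist and sham hearts on the log2 scale (horizontal axis) for the 9 tested genes, with limma's moderated standard error over all 5 arrays (red) and the value without antagonist replicate 2 (open diamonds). Clec4e (1.10) and Clec4d (1.01) lie apart on the higher side and Clec7a (-0.50) on the lower side, with and without that heart.

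The list of other adaptors and receptors also holds an inhibitory Fc receptor gene and Hcst, whose adaptor has no ITAM. Its genes showed smaller differences. Of 13 tested genes in this list 7 were higher and 6 lower, with a median of 0.0012, and 0 had a limma adjusted p under 0.05 (1 had an unadjusted p under 0.05). Fcgr1, the high-affinity IgG receptor that also uses the FcR gamma chain, measured 4.90 and 4.76 in sham and 5.15, 5.12 and 5.22 with the antagonist. All antagonist values lay above the sham values, with a difference of 0.34 ± 0.06 (SE; limma adjusted p = 0.64). The platelet collagen receptor gene Gp6 differed by -0.22, Fcgr4 by 0.18 and the MDL-1 adaptor gene Hcst by -0.088. Tyrobp, the other MDL-1 adaptor gene, had the value 5.23 on 4 arrays and 5.07 on sham replicate 2, a difference of 0.077.

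The genes listed for SYK and CARD9 signalling, which include kinase genes acting before SYK, differed little. Of 29 tested genes 10 were higher, 18 lower and 1 equal, with a median of -0.027, and 0 passed (1 had an unadjusted p under 0.05). Card9 differed by -0.039, Bcl10 by -0.010, Malt1 by -0.15 ± 0.08 (SE) and the phospholipase gene Plcg2 by -0.11. Blnk, an adaptor phosphorylated by SYK in B cells, measured 5.22 and 5.11 in sham and 5.01 on each antagonist array. Pik3cg (-0.19) and Sh3bp2 (-0.044) were the other genes of smallest p. Listed as inhibitors of ITAM signalling were 20 tested genes, of which 8 were higher, 9 lower and 3 equal. Their median was 0 (0 passed, 1 with an unadjusted p under 0.05). The phosphatase gene Ptpn11, whose product is not only an inhibitor, differed by 0.28 ± 0.11 (SE). The inhibitory receptor gene Pirb differed by 0.084, and the adaptor genes Dok3 and Dok1 by -0.12 and -0.19.

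Genes known as outputs of these receptors are mostly cytokine and chemokine genes that many other signals also induce. Of 23 measured, 6 lay below the level filter and are not counted here. Among the 17 tested, 14 were higher, with a median of 0.33 over the 17. Of these, 0 passed over all genes and 0 had an unadjusted p under 0.05. Il1b measured 7.32 and 7.24 in sham and 8.01, 8.52 and 7.53 with the antagonist. The inflammasome gene Nlrp3 measured 4.42 and 5.17 in sham and 5.44, 5.42 and 5.17 with the antagonist. Both lay higher in all antagonist hearts, Nlrp3 by a narrow margin over sham replicate 2. The receptor antagonist gene Il1rn differed by 0.21 and the early response gene Egr2 by -0.18. Antagonist replicate 2 had the highest value of 12 of the 17 genes, and without it the median was 0.13. Reported endogenous ligands were 4 higher and 5 lower of 9 (0 passed, 0 with an unadjusted p under 0.05). Sap130, whose product binds Mincle, differed by -0.13, Hmgb1 by -0.16, Anxa5 by 0.12 and Calr by 0.18.

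**Figure D4:**
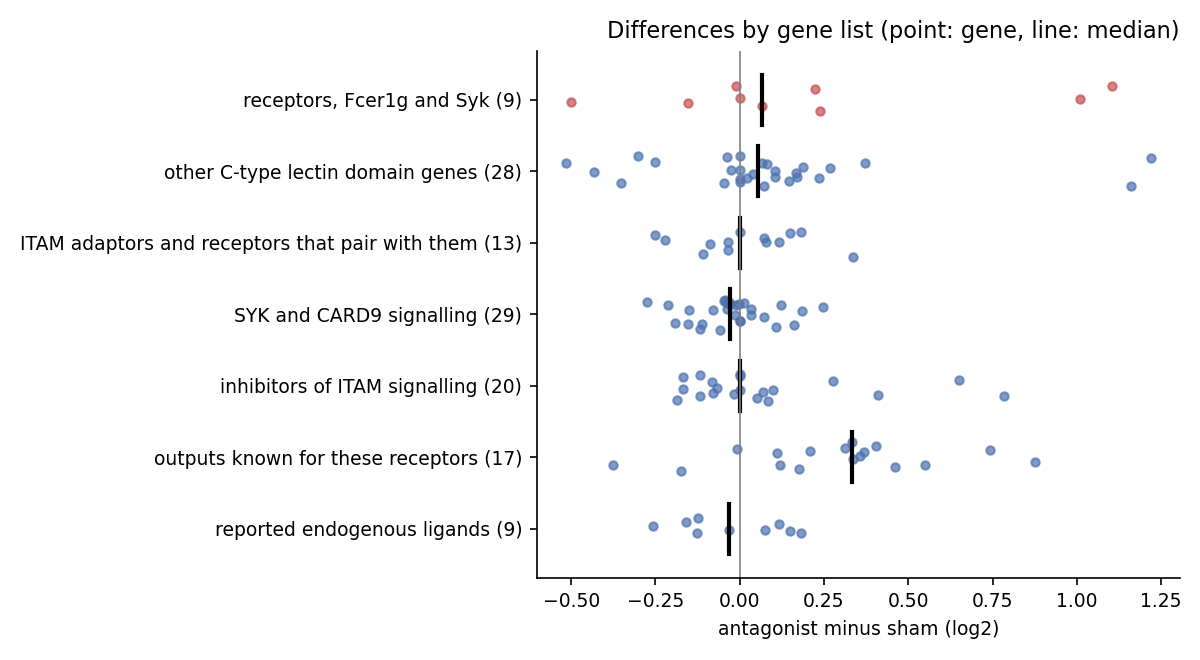
Difference between antagonist and sham hearts on the log2 scale (horizontal axis) of each tested gene, by list, with the number of genes in brackets and a line at the median. Among the lists plotted the output genes have the highest median (0.33, and 0.13 without antagonist replicate 2). The SYK and CARD9 genes have a median of -0.027, with single genes such as Vav3 (-0.28) and Lcp2 (0.25) farther from 0.

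Of 28 tested genes of other C-type lectin domain proteins 16 were higher, 8 lower and 4 equal, with a median of 0.053, and 0 passed (1 had an unadjusted p under 0.05). Clec14a, an endothelial lectin, measured 6.03 and 6.25 in sham and 5.75, 5.71 and 5.66 with the antagonist, a difference of -0.43 ± 0.08 (SE; limma adjusted p = 0.64). The inhibitory myeloid receptor gene Clec12a differed by -0.52 ± 0.30, with sham replicate 1 at 5.33 and the other arrays between 4.17 and 4.59. Pla2r1 differed by -0.30 and Clec2l by 0.17. Of the selectin genes in this list Sele and Selp had differences of 1.22 and 1.16 with all arrays and 0.27 and 0.35 without antagonist replicate 2, and these 2 genes were chosen after their values were seen.

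Tested genes were ranked by the nearness of their values over the 5 arrays to those of Clec4e, each gene centred on its own mean. Predicted and clone-named genes, such as Gm and Rik symbols, were left out of the ranking. The nearest genes were Ccl12, Serpina3n, Il1b, Ccl9 and Nfkbia. Their root mean square distances from Clec4e were 0.073, 0.24, 0.26, 0.31 and 0.31 on the log2 scale. Ccl12, a monocyte-attracting chemokine gene, measured 4.50 and 4.002 in sham and 5.03, 5.85 and 4.97 with the antagonist, so that it repeated both the gap between the sham hearts and the high value of antagonist replicate 2. Clec4d ranked 15 in this order, at a distance of 0.34. The remaining tested genes of the family ranked 780 or lower, with Clec7a the farthest (0.87). These ranks compare 5 arrays and describe the likeness of values only.

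Since the receptors belong to immune cells, marker genes of the cells that carry them are given beside them. All 14 heart muscle markers passed the level filter on the hearts' mean. In whole tissue, more cells of a type and more RNA per cell cannot be told apart. Of 19 measured neutrophil markers 11 lay below the level filter. Among the defining ones S100a8 lay between 2.08 and 2.18, S100a9 between 2.46 and 2.70 and Ly6g between 2.27 and 2.56. The mean of the neutrophil list was 3.13 and 3.07 in the sham hearts and between 3.12 and 3.14 in the antagonist hearts. The median difference of the 8 tested markers was 0.014, with 5 higher, 1 lower and 2 equal.

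All 20 resident macrophage markers passed the level filter, 11 higher and 9 lower, with a median difference of 0.011. The list mean was 6.78 and 6.80 in sham and 6.88, 6.90 and 6.71 with the antagonist. The groups did not overlap in 3 of these markers on the higher side and 3 on the lower side. The shares of all tested genes were 6.19% and 6.33%. On the higher side Lyve1 differed by 0.51 ± 0.17 (SE), C1qa by 0.38 ± 0.18 and Fcgr1 as given above. On the lower side Ms4a7 differed by -0.37 ± 0.18, Cd68 by -0.26 and Folr2 by -0.24. Each of these had a limma adjusted p of 0.64. C1qb (0.018) and C1qc (-0.022) overlapped between the groups. Of 17 measured monocyte markers 5 lay below the level filter, and 9 of the 12 tested were higher, with a median of 0.082. The mean of all 17 was 5.29 and 5.42 in sham and 5.41, 5.73 and 5.47 with the antagonist. Much of the height of antagonist replicate 2 came from the haptoglobin gene Hp, which measured 8.19 there and between 4.28 and 4.95 on the other arrays. Without Hp, an omission chosen after its values were seen, antagonist replicate 2 remained the highest array. The means of the other 16 genes were then 5.36 and 5.46 in sham and 5.47, 5.58 and 5.51 with the antagonist. Of the 12 tested monocyte genes, the groups did not overlap in 3 on the higher side and 1 on the lower side. Among all tested genes these shares were 6.19% and 6.33%. The lipopolysaccharide receptor gene Cd14 measured 6.28 and 6.25 in sham and 6.92, 7.19 and 6.69 with the antagonist, and Ly6c2, a near copy of Ly6c1 so that its probe may read both, 6.74 in both sham hearts and 6.94, 6.94 and 7.39 with the antagonist. Ms4a6c measured 5.58 and 5.11 in sham and 5.62, 5.62 and 5.97 with the antagonist. These 3 genes measured higher in every antagonist heart. Ace went the other way, with 8.34 and 8.36 in sham and 8.27, 8.14 and 8.27 with the antagonist, a difference of -0.13. Fn1 (-0.012) and Nr4a1 (-0.046) overlapped between the groups, and Ccr2, which defines classical monocytes, lay between 3.06 and 3.17, below the filter. Dendritic cell markers had a median difference of 0, with 3 higher, 2 lower and 2 equal of 7. The lists of mast cell (0 higher, 5 lower), platelet (5 higher, 2 lower) and lymphocyte markers (1 higher, 2 lower, 1 equal) had few tested members. The part of monocytes or macrophages in the values of Clec4d, Clec4e and Clec7a was not tested.

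**Figure D5:**
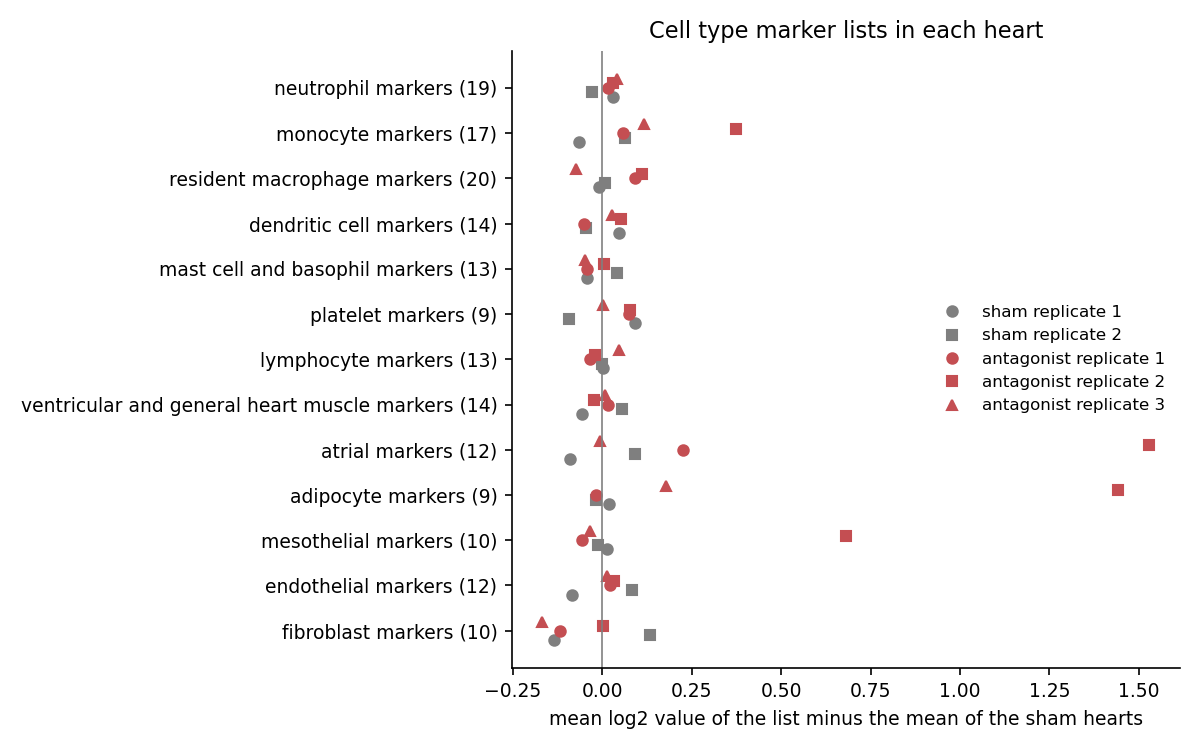
Mean log2 value of each marker list (number of measured genes in brackets) minus the mean of the sham hearts (horizontal axis), by heart. Antagonist replicate 2 stands apart for atrial, adipocyte and mesothelial markers. Much of the height of its monocyte mean comes from Hp. The neutrophil markers lie close together in all 5 hearts.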

How the data were processed

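Biotinylated DNA made from 300 ng total RNA of each of 5 hearts was hybridised to Affymetrix arrays, per the labels' protocols. The deposited values are log2 and were made by the authors with RMA, per the submitters' processing notes; its version and the probe library are unstated in the labels. The number of arrays limits the precision. The table held 41345 probes; 23521 had 1 gene symbol in the platform annotation, 1814 had several and 16010 were not listed. Of 22180 symbols, 21994 were found by gene identifier in the RefSeq table of GRCm38.p6 and 0 names changed. The median value per array was 3.92 to 3.95.

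Genes whose mean reached 3.42, the probes' 40th percentile, were kept, and these 15294 were fitted with limma 3.58.1 in R 4.3.3 (lmFit, eBayes, two-sided, no covariates) and adjusted over all of them by Benjamini-Hochberg at 0.05. Differences are antagonist minus sham, errors are limma's moderated SE. The fit was tested on simulated normal values. These lack the ties of the deposited values, so that test does not cover tied genes. The limma p-values judge the difference of means against the spread within groups of 2 and 3 hearts, moderated over all tested genes.

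The members and lists were chosen with earlier results of these data known. Named are all 10 members, the 4 genes of smallest p per pathway list, Tyrobp, Card9, Bcl10, Malt1 and Plcg2. Also named are the brightest or smallest-p markers where they stand beside a member. The 5 genes nearest in pattern to the member with the widest range are named too. Defining neutrophil markers, Ccr2, Hp, Fn1, Nr4a1, Vav3, Lcp2, Cd68, Folr2, C1qb, C1qc, Bmp10, Cidec and Retn were added after their values were seen. Alternatives covered the level filter, normalization, probe choice, variance model, weights per array, a block for the replicate number, and dropping each array in turn; restricting the fit to genes without ties was chosen after seeing the data. Protein sequences were not used here.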

Additional observations from a re-analysis of the deposited data

How the results depend on the processing

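Of the 9 tested genes, 0 passed an adjusted p under 0.05 in the main fit or under any alternative run. Clec4d lay between 0.90 and 1.12 and Clec4e between 0.80 and 1.41 with single arrays left out, Clec7a between -0.59 and -0.42, Clec4n between 0.10 and 0.38 and Clec5a between 0.06 and 0.31. The signs of 3 genes turned in that step: Clec4a1 ranged from -0.22 to 0.20, Clec4a3 from -0.085 to 0.22 and Fcer1g from -0.48 to 0.18. The adjusted p of Clec4d ranged from 0.080 (without sham replicate 2) to 0.94 (array weights). The number of higher genes of the family was 5 of 9, 1 of the 5 left with the 60th percentile level filter, which drops Clec4d, and 2 of the 3 left among genes with 5 different values. Over all genes the number of calls was 0 under every alternative except where a sham array was left out, with a range of 0 to 2058: 1319 without sham replicate 1 and 2058 without sham replicate 2, fits in which the lone sham heart is assumed to vary like the antagonist hearts; the cause was not tested. Under a second quantile normalization and under median centring Syk differed by -0.012 and 0.0012. With the replicate number as a block, which leaves antagonist replicate 3 without a partner, 0 genes were called, 5 of the 9 were higher, and Clec4d and Clec4e differed by 1.08 and 1.30. Deviations from the group means correlated at -0.11 for replicate 1 and 0.03 for replicate 2. The deviations of the 2 sham hearts mirror each other, so these values cannot decide whether the numbers pair hearts. Nothing else shows that they do. Low values, with Clec4d, Clec4e and Clec4n near the filter of 3.42 in sham (Clec4e at 3.65 in sham replicate 2), limit what the arrays resolve.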
